A study of Mus musculus with 6 samples.

Results

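The genes described here are 10 mouse genes of mucosal secretion and surface defence, followed across 6 arrays: Ltf, Lcn2, Slpi, Wfdc2, Muc1, Muc4, Clca1, Fcgbp, Pigr and Psca. They form a named list chosen by their intensity on these same 6 arrays, so everything below describes them and nothing is tested. The annotation of the array carried 9 of the 10 symbols, and Clca1 was found through its earlier mouse symbol, Clca3, which the gene table used here gives to no other gene. The array annotation has no accession to settle that this probe measures Clca1, so the Clca1 values below hold for that probe. Each of the 10 genes had 1 probe, out of 17742 named genes on the array.

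The samples came from female BALB/c mice and carry the labels brain, ovary or uterus. In each tissue 1 sample is from untreated mice (mock) and 1 from mice that received SHT (Sheng-Hua-Tang, a herbal preparation) by mouth, 200 mg/kg on 7 days in a row. With 1 array of Cy5-labelled RNA in each of the 6 groups, no value has a replicate, and precision is limited by how few arrays there are. No source used here gives the age of the mice, their stage of the oestrous cycle or whether RNA was pooled. These are bulk tissue samples, in which fewer cells of a type and less RNA per cell cannot be told apart. The comparison asked of each tissue was what SHT changed, as SHT against mock.

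Marker genes went against the labels of several arrays, so every array is named by its label only (SHT brain is the array with that label, whatever tissue it holds). Snap25, a protein of synaptic vesicle release, read 58204 on mock brain and 60038 on SHT ovary, but 210 on SHT brain. Hsd3b1, an enzyme of steroid synthesis, read 40566 on SHT brain and 51780 on mock uterus, and at most 101 on the rest. Krt5, a keratin of stratified epithelium, read 36716 on mock ovary and 29948 on SHT uterus, and at most 250 elsewhere. Of 8 neuron and glia markers all were above background (the edge taken from olfactory receptor genes, as given with the levels) on mock brain and SHT ovary and 1 to 4 on the rest, and of 10 ovary markers all were on SHT brain and mock uterus and 1 or 2 on the rest. Of 12 uterus markers 5 to 8 were above it on every array, but their levels differed. Their sums were 98273 on SHT uterus, 94155 on mock ovary, 55872 on SHT brain, 51210 on mock uterus, 8701 on mock brain and 7494 on SHT ovary. Acta2 alone read 59636, 60854, 42276 and 45362 on the first 4 of these. Hoxa10 read 6642, 2805, 1163 and 324 on the same arrays and was inside background on the rest. Wnt7a went another way and was highest on mock brain (700). With the members left out, the 3 most similar of the 15 pairs of arrays were mock brain with SHT ovary (Pearson r 0.996 over 26413 probes, which are not independent replicates), SHT brain with mock uterus (0.981) and mock ovary with SHT uterus (0.972). None of these pairs shares a tissue label, and the 3 pairs that do correlated at 0.813, 0.828 and 0.931. A difference between a labelled SHT array and its mock array can therefore be a difference between tissues, and this cannot be told apart from the treatment.

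Mucosal surfaces of the gut, airway and reproductive tract are covered by secretions that hold gel, antibodies and antimicrobial proteins. Lactoferrin (Ltf) and lipocalin 2 (Lcn2) keep iron from bacteria, Slpi and Wfdc2 are small secreted proteins of the whey acidic protein (WAP) family, and Muc1 and Muc4 are mucins anchored in the cell membrane. Clca1 and Fcgbp are secreted components of mucus, Pigr carries polymeric immunoglobulin A across epithelium, and Psca is a lipid-anchored surface protein of the Ly6 family. In the mouse uterus Ltf is a classic gene of oestrogen response, and Ltf and Lcn2 are also stored in the granules of neutrophils.

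The sequences just before the transcription start are shown for Lcn2, Ltf and Slpi, because these 3 of the 8 members with an entry in the RefSeq promoter table (GRCm38.p6) share 1 of the 7 motifs searched. Each line gives the 250 bases before the start on the strand of the gene, 5′ to 3′, and capitals mark matches to TTGCNNAA, a form of the motif bound by C/EBP factors, on either strand. The Lcn2 stretch is chr2:32387740-32387989 (minus strand), the Ltf stretch chr9:111019042-111019291 (plus strand) and the Slpi stretch chr2:164356508-164356757 (minus strand).
Lcn2: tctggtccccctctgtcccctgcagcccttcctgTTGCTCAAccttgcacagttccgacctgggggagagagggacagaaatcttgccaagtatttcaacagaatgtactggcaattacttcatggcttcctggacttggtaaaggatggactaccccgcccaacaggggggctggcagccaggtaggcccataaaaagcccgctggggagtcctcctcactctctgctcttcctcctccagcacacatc
Ltf: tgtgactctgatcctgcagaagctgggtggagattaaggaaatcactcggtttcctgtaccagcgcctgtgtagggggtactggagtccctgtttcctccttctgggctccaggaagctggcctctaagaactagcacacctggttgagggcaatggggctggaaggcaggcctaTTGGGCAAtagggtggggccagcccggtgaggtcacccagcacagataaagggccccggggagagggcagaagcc
Slpi: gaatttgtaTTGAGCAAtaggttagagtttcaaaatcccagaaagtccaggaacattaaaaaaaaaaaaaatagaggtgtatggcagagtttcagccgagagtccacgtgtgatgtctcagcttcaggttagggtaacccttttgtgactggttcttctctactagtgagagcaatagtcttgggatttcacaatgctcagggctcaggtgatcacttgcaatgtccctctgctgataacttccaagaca
The match begins 216 bases before the start of Lcn2, 75 before that of Ltf and 241 before that of Slpi. This motif was in 9.56% of the 32851 promoter entries over the same 250 bases. AGGAAGT, an ETS motif, was in the Fcgbp window (7.69% of all entries), AACCNGTT, a grainyhead motif, in that of Muc1 (1.79%), and TATAAA in those of Muc1 and Muc4 (12.4%). TGANTCA (AP-1, 6.75%), the NF-kB motif (4.11%) and the full oestrogen response element (0.0639%) were in no window of the 8 members. All motifs were searched on both strands, with no overlap between the matches found. A match is a run of letters and does not show that a factor binds there.

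As the edge of the background, the 95th percentile of 529 olfactory receptor genes was taken on each array (275 to 541), since most tissues do not use these genes. By that measure Ltf was above background on all 6 arrays, Lcn2, Slpi, Wfdc2, Clca1 and Fcgbp on 4, Muc1, Muc4 and Psca on 2, and Pigr on 1. The array labelled SHT uterus had all 10 members above background, SHT brain 8, mock ovary 7 and mock uterus 6. On mock brain and on SHT ovary only Ltf was above it. Of all genes, between 44.2% and 55.3% were above the same edge on each array.

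**Figure D1:**
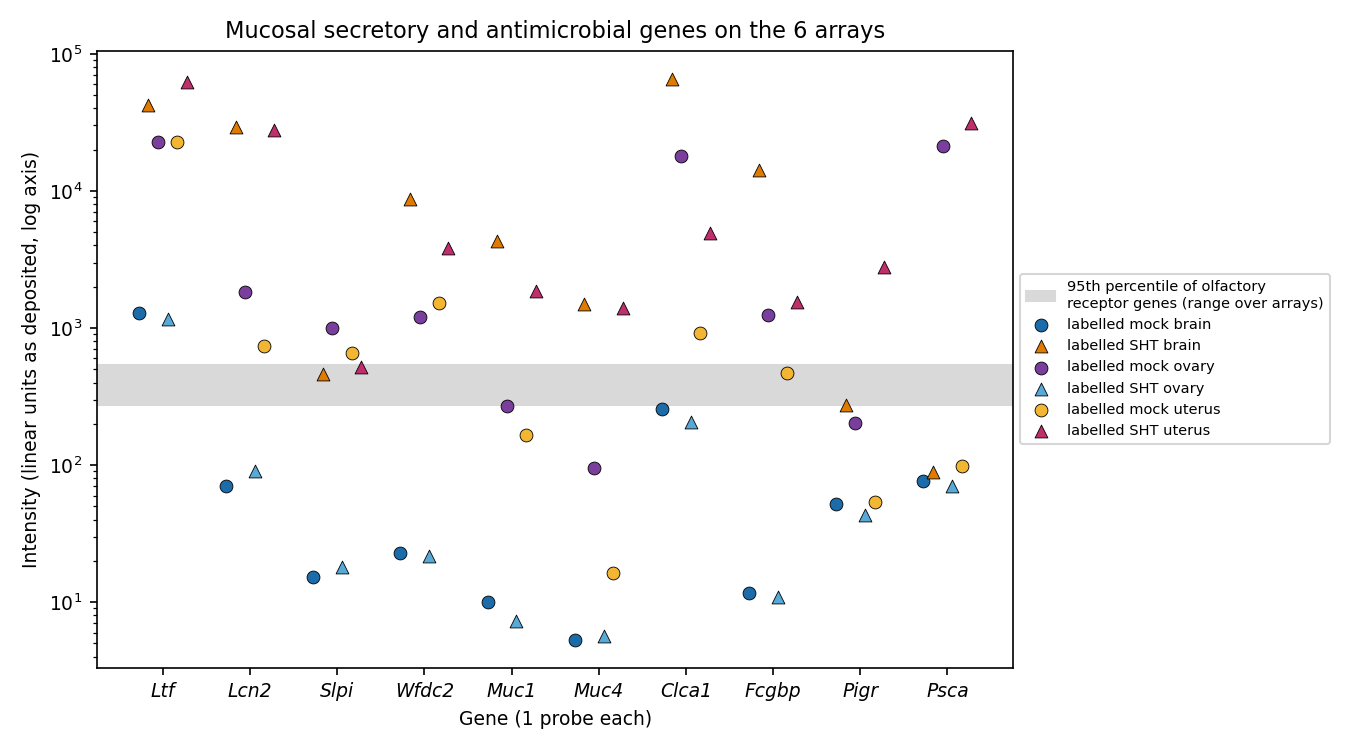
Intensity of each member (x axis) on the 6 arrays (log y axis, linear units as deposited), with 1 point per array, circles for mock and triangles for SHT labels, and a grey band for the olfactory receptor 95th percentiles of the arrays. Apart from Ltf, the points labelled mock brain and SHT ovary lie below the band, and the highest point is labelled SHT brain for 6 genes. Levels of different genes come from different probes and do not compare.

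Among the iron-binding proteins, Ltf read 1290 on mock brain, 42062 on SHT brain, 22638 on mock ovary, 1168 on SHT ovary, 22691 on mock uterus and 62708 on SHT uterus. It was thus bright on 4 arrays, and the readings labelled mock ovary and mock uterus were almost the same. The reading on SHT uterus lay close to the top of the intensity scale, taken as 65000. Lcn2 read 70.5 on mock brain, 29127 on SHT brain, 1817 on mock ovary, 90.5 on SHT ovary, 742 on mock uterus and 27698 on SHT uterus. Lcn2 therefore split the 4 arrays on which it was above background into a bright pair, SHT brain and SHT uterus, and a dim pair, mock ovary and mock uterus.

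The pair of WAP proteins did not share a profile. Slpi, which inhibits serine proteases such as neutrophil elastase, read 15.4 on mock brain, 463 on SHT brain, 999 on mock ovary, 17.9 on SHT ovary, 653 on mock uterus and 519 on SHT uterus. Slpi was the only member whose highest reading was on mock ovary, and its 4 readings above background lay between 463 and 999. Wfdc2 read 22.7 on mock brain, 8724 on SHT brain, 1210 on mock ovary, 21.9 on SHT ovary, 1517 on mock uterus and 3828 on SHT uterus. Both were inside background on mock brain and SHT ovary, but Wfdc2 was highest on SHT brain and Slpi on mock ovary. In the RefSeq gene table both lie on chromosome 2 with 7 protein-coding genes between them, none of them another WAP gene of the list used here.

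The membrane mucins were above background on the arrays labelled SHT brain and SHT uterus only. Muc1 read 9.98 on mock brain, 4331 on SHT brain, 271 on mock ovary, 7.33 on SHT ovary, 165 on mock uterus and 1867 on SHT uterus. Muc4 read 5.32 on mock brain, 1509 on SHT brain, 95.5 on mock ovary, 5.67 on SHT ovary, 16.2 on mock uterus and 1393 on SHT uterus. For both genes these 2 arrays were those on which Lcn2 was bright.

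The mucus proteins were highest on the array labelled SHT brain. Clca1, a secreted protein of goblet cells that modulates chloride conductance, read 257 on mock brain, 65723 on SHT brain, 17905 on mock ovary, 206 on SHT ovary, 917 on mock uterus and 4920 on SHT uterus. Its highest reading was at the top of the scale, so the level there is a lower bound, and it was 1 of 2 probes of that array to reach 65000. Fcgbp, a large protein of the mucus gel, read 11.7 on mock brain, 14185 on SHT brain, 1240 on mock ovary, 11.0 on SHT ovary, 472 on mock uterus and 1541 on SHT uterus. In the gene table a neighbour of Fcgbp, 9530053A07Rik, carries FCGBP as a synonym, and no source used here says which of them the probe measures.

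Pigr and Psca were above background on 1 and 2 arrays. Pigr read 51.9 on mock brain, 273 on SHT brain, 203 on mock ovary, 43.1 on SHT ovary, 54.1 on mock uterus and 2782 on SHT uterus, and only the last was above background. The reading on SHT brain lay just under the edge of 275 on that array. Psca read 77.0 on mock brain, 89.3 on SHT brain, 21133 on mock ovary, 70.2 on SHT ovary, 98.8 on mock uterus and 31375 on SHT uterus. Psca was thus bright on the arrays where Krt5 was bright and inside background on the rest, including SHT brain, where 6 other members had their highest reading.

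In the pair labelled brain, the 8 members above background on SHT brain read higher there than on mock brain. Folds are given relative to the median gene of the pair, which differed by -0.12 on the log2 scale, and are lower bounds ("at least") where the dimmer array was inside background and its edge took the place of its reading, or where the brighter was at the top of the scale. Ltf was 35.4-fold higher, measured on both arrays. Clca1 was at least 132-fold higher, Lcn2 at least 58.4-fold, Fcgbp at least 28.4-fold, Wfdc2 at least 17.5-fold, Muc1 at least 8.68-fold and Muc4 at least 3.02-fold. Slpi was above background on SHT brain only, by less than allows a fold against the edge on mock brain, and Pigr and Psca were inside background on both. Counted as at least 2-fold where the mean level of the pair exceeded that of the median probe, 5 of the 5 members past this floor were higher (Ltf, Lcn2, Clca1, Fcgbp and Wfdc2), beside 24.7% of 10746 genes higher and 21.7% lower. A member can pass the floor through its brighter array alone, so this count is a description. With no floor it was 9, beside 21.6% of genes higher. These include Pigr, inside background on both arrays, and Slpi, for which no fold could be given. With low values raised to the edge of the background it was 7, beside 43% higher and 11% lower.

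In the pair labelled ovary, the 7 members above background on mock ovary read lower on SHT ovary. The median gene differed by 0.13. Ltf was 21.2-fold lower, measured on both arrays. Psca was at least 57.3-fold lower, Clca1 at least 48.6-fold, Lcn2 at least 4.93-fold, Fcgbp at least 3.36-fold, Wfdc2 at least 3.28-fold and Slpi at least 2.71-fold. Muc1, Muc4 and Pigr were inside background on both arrays. Past the floor were 4 members, Ltf, Lcn2, Clca1 and Psca, all lower, beside 23.4% of 10692 genes lower and 23% higher. With no floor 10 members were lower, beside 21% of genes, 3 of them from readings inside background on both arrays. With low values raised to the edge of the background 7 were, beside 25.1%.

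In the pair labelled uterus, the members apart from Slpi read higher on SHT than on mock. Here the median gene differed by -0.02, and 5 genes higher on SHT were above background on both arrays: Lcn2 was 37.8-fold higher, Clca1 5.43-fold, Fcgbp 3.30-fold, Ltf 2.79-fold and Wfdc2 2.55-fold. Psca was at least 108-fold higher, Pigr at least 9.54-fold, Muc1 at least 6.40-fold and Muc4 at least 4.78-fold. Slpi was 1.24-fold lower, which did not reach 2-fold. Of the 9 members past the floor 8 were at least 2-fold higher, beside 13.1% of 10765 genes higher and 8.26% lower. Muc4 did not pass it. At 3-fold 6 members were higher, without Ltf and Wfdc2, beside 7.62% of genes higher and 4.36% lower.

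**Figure D2:**
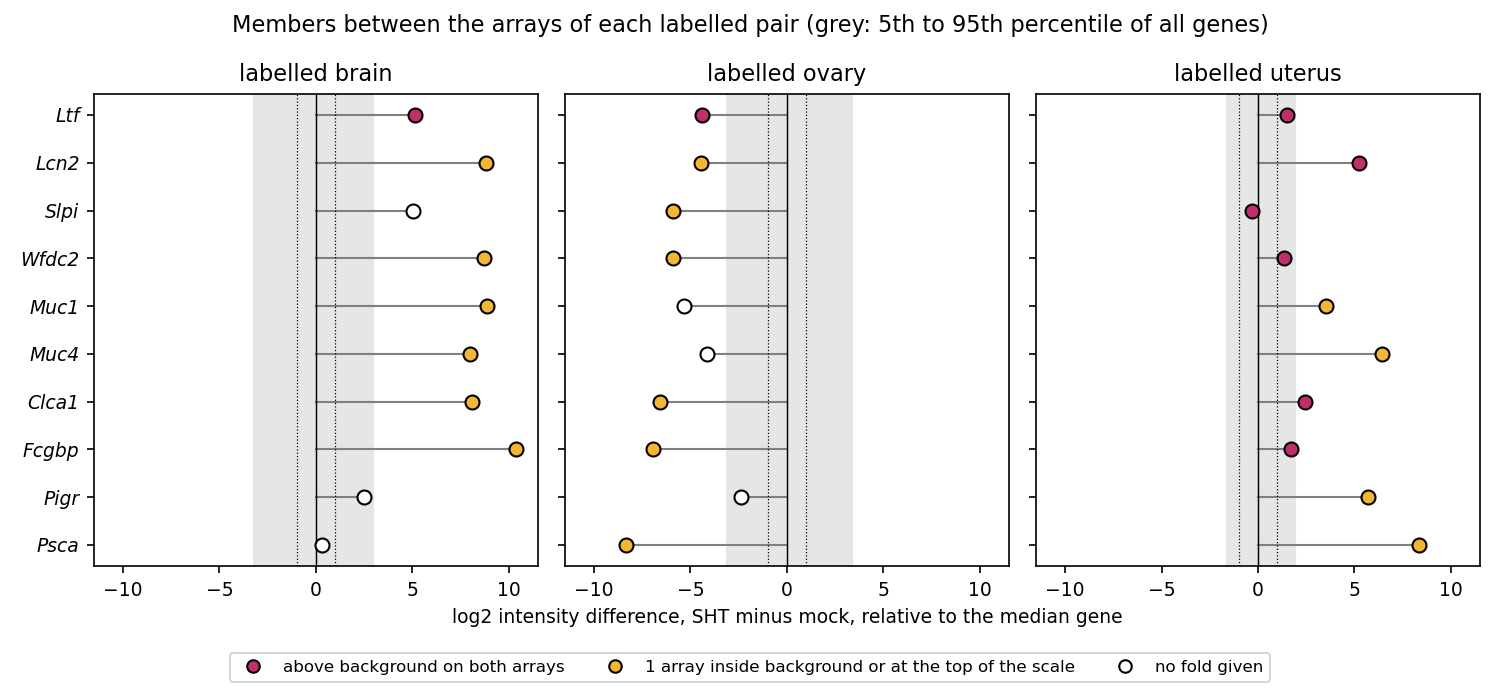
Log2 intensity difference, SHT minus mock, of each member in the 3 labelled pairs, relative to the median gene (x axis), with dotted lines at 2-fold and a grey band from the 5th to the 95th percentile of all genes. Filled red points were above background on both arrays, yellow ones on 1 array or at the top of the scale, and open ones have no fold. Positions are the differences as read. Those of yellow and open points rest on readings inside background or at the top of the scale and are not measured folds. The filled and yellow points lie to the right for brain, to the left for ovary and, except Slpi, to the right for uterus.

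The arrays with the closest whole profiles show how the members differ where the rest of the transcriptome is most alike. These comparisons share arrays with those of the labelled pairs and set 1 array against 1 array. Between mock brain and SHT ovary no member reached 2-fold, beside 0.0378% of 10586 genes higher and 0.0756% lower on SHT ovary, and only Ltf was above background on both, 1.04-fold higher on mock brain.

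Between SHT brain and mock uterus, arrays that share the high levels of Hsd3b1, 7 of the members were brighter on SHT brain. The median gene differed by -0.25 (SHT brain minus mock uterus). Clca1 was at least 85.1-fold higher, Lcn2 46.6-fold, Fcgbp 35.6-fold, Muc1 at least 17.4-fold, Wfdc2 6.82-fold, Muc4 at least 6.07-fold and Ltf 2.20-fold. Slpi did not reach 2-fold (a log2 difference of -0.25), and Pigr and Psca were inside background on both. Of the 7 members past the floor 6 were at least 2-fold higher, beside 5.27% of 10762 genes higher and 1.12% lower. Of 9 uterus markers past the floor 5 were higher on SHT brain and 0 lower, and of 10 ovary markers 0 and 0. Of 10 simple epithelium markers past it 9 were higher and 0 lower. The part of these tissues in the differences of the members was not tested.

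Between mock ovary and SHT uterus, arrays that share the high levels of Krt5 and Psca, the members went in both directions. The median gene differed by 0.33 (SHT uterus minus mock ovary). Lcn2 was 12.1-fold higher on SHT uterus, Pigr at least 7.07-fold, Muc1 at least 4.75-fold, Muc4 at least 3.54-fold, Wfdc2 2.51-fold and Ltf 2.20-fold. Clca1 was 4.59-fold and Slpi 2.43-fold higher on mock ovary. Psca (1.18-fold higher on SHT uterus) and Fcgbp (a log2 difference of -0.02) did not reach 2-fold. All 10 members passed the floor, with 6 higher and 2 lower on SHT uterus, beside 6.11% of 10690 genes higher and 5.07% lower. At 3-fold, or with low values raised to the edge of the background, 1 was lower (Clca1). At 3-fold 4 were higher, without Ltf and Wfdc2, beside 1.77% of genes higher and 2.28% lower. With the raised values 12.1% of genes were higher and 2.89% lower.

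**Figure D3:**
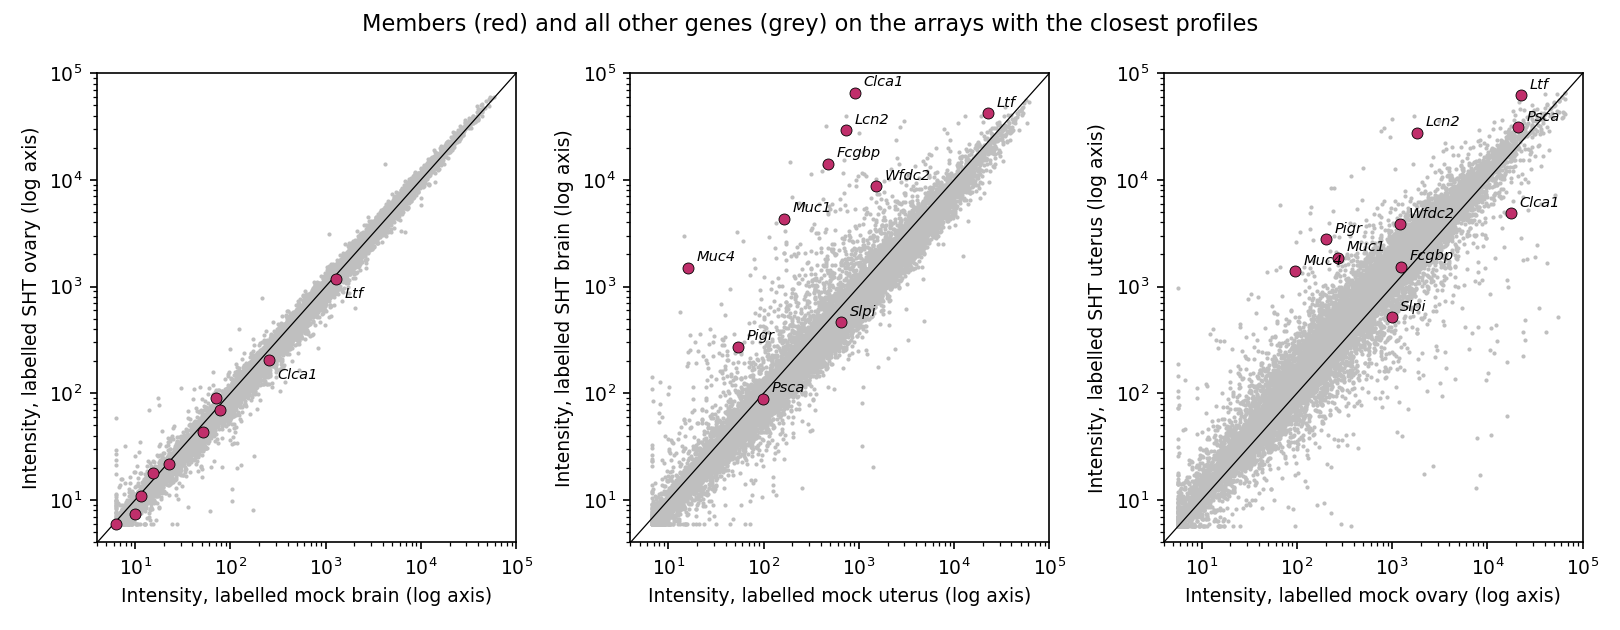
Intensity of all genes (grey) and of the members (red) on the arrays of the 3 most similar pairs, 1 array on each log axis, with a line where both are equal. The members lie in the cloud for mock brain and SHT ovary; for SHT brain against mock uterus Clca1, Lcn2, Fcgbp, Muc1 and Muc4 lie far above it, and for mock ovary and SHT uterus members lie on both sides of the line.

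Related genes were taken from lists. Their counts are to be read beside the shares of all genes past the floor. These were 24.7% higher and 21.7% lower in the pair labelled brain, 23% and 23.4% in ovary, and 13.1% and 8.26% in uterus. The median log2 differences of all genes past it were 0.08, 0.01 and 0.05. With few list genes past the floor, a count near these shares says nothing particular about a list. Of 15 goblet cell and mucus genes, 13 had a named probe, 6 of which were above background on at least 1 array. Agr2, which folds mucins in the endoplasmic reticulum, read 3334 on SHT brain, 1661 on mock uterus and 544 on mock ovary, and was inside background elsewhere, SHT uterus included (148). Galnt12, which starts mucin-type glycosylation, read 3385 on SHT brain, 1923 on mock ovary, 1857 on SHT uterus and 560 on mock uterus. Gcnt3, which branches mucin sugars, read 4824 on SHT brain and 3971 on mock uterus, and between 624 and 763 on the rest. Zg16 was above background on mock uterus only (527). Spdef was highest on mock ovary (684) and Creb3l1 on mock uterus (797), so these genes of the list did not peak on SHT brain. In the pair labelled brain 5 of the 6 list genes past the floor were higher by 2-fold or more, with a median log2 difference of 2.46 beside 0.08 for all genes. In the pair labelled ovary 3 of 4 were lower (median -2.02 beside 0.01), and in the pair labelled uterus 1 of 5 was higher and 3 were lower (median -1.16 beside 0.05), where 8 of 9 members were higher.

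Of 15 other mucins 10 had a named probe and 3 were above background on any array. The gel-forming mucins Muc2, Muc5ac and Muc6 read inside background on all 6 arrays. Muc13, a membrane mucin, read 5740 on SHT uterus and 2129 on mock ovary, and between 550 and 881 on the rest. Muc16, the membrane mucin known as CA125, read 737 on mock uterus and 347 on SHT brain and was inside background elsewhere, which is not the order of Muc1 or Muc4. Muc5b, a gel-forming mucin, read 766 on mock ovary alone. In the pairs labelled brain, ovary and uterus 1, 2 and 2 of them passed the floor, with 0 higher and 0 lower in brain, 0 and 2 in ovary and 1 and 1 in uterus, and with medians of 0.32, -2.28 and -0.15.

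The probes with other Clca symbols did not follow Clca1. The probe named CLCA5 read 1196 on mock ovary and 1261 on SHT uterus and was inside background on the rest, as Psca was. Those named CLCA4 and CLCA2 were above background on SHT uterus only, at 2597 and 698. Since these symbols have been moved between mouse genes, they are given as the array annotation has them.

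Of 21 other WAP genes, 19 had a named probe and 13 of these were inside background on all arrays. Wfdc18 read 12595 on SHT uterus, between 1067 and 1308 on SHT brain, mock ovary and mock uterus, and 223 and 213 on mock brain and SHT ovary. Wfdc12 read 2704 on mock ovary and at most 26.2 on the others. Wfdc21 was above background on SHT uterus alone (1362), and Wfdc9 on mock ovary (1065) and SHT uterus (390). In the pairs labelled brain, ovary and uterus, 1 of 3, 0 of 4 and 2 of 4 past the floor were higher and 0, 3 and 0 lower, with medians of 0.88, -2.59 and 2.10.

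The Ly6 and uPAR domain list, the family of Psca, had 12 named probes of 32 genes. Slurp1, secreted by keratinocytes, read 8107 on mock ovary and 1070 on SHT uterus, and Ly6m 4601 and 1535, with both inside background on the rest. Pinlyp read 1846 and 370 on the same arrays. All 3 were thus above background where Psca was, Pinlyp on SHT uterus only narrowly (the edge was 318). Unlike Psca they read lower on SHT uterus than on mock ovary. Plaur, the urokinase receptor, was above background on SHT uterus (1002) and, narrowly, on SHT brain (282). In the pairs labelled brain, ovary and uterus, 0 of 3, 0 of 7 and 2 of 5 past the floor were higher and 0, 5 and 0 lower, with medians of 0.71, -3.07 and 0.37.

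Among 38 other antimicrobial genes, 23 had a named probe and 11 of these were above background on at least 1 array. Sftpd, a collectin that binds microbes, read 11727 on SHT brain, 1082 on mock uterus, 735 on SHT uterus and 414 on mock ovary. Its highest array was that of Clca1 and Fcgbp. Duox1, which makes hydrogen peroxide, read 3066 on mock ovary and 1969 on SHT uterus, and the defensin Defb14 read 980 and 2106, with both inside background on the other arrays. In the pair labelled brain 2 of 7 past the floor were higher and 3 lower (median 0.27), in ovary 2 and 3 of 7 (median -0.48), and in uterus 6 and 0 of 8 (median 3.75).

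Of 14 listed partners of Pigr in antibody secretion, 12 had a named probe. Jchain, which joins immunoglobulin A into the polymers Pigr carries, read 1277 on SHT brain and 340 on SHT uterus and was inside background on the rest. Ccl28, which attracts plasma cells to mucosa, was above background on SHT brain only (545). Ccl25 was above background on SHT ovary only (464). It was the 1 list gene at least 2-fold lower on SHT in the pair labelled brain. Both of its readings there were inside background (418 on mock brain and 167 on SHT brain). Prdm1, a transcription factor of plasma cells and of epithelium, read 2810 on mock ovary, 2914 on SHT uterus, 769 on SHT brain and 469 on mock uterus. In the pairs labelled brain, ovary and uterus, 3 of 6, 0 of 4 and 2 of 5 past the floor were higher and 1, 1 and 0 lower, with medians of 0.63, -0.83 and 0.54.

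Simple epithelium markers, like the members, were mostly inside background on mock brain and SHT ovary. Of 11 simple epithelium markers, 10 were above background on SHT brain and on SHT uterus, 9 on mock ovary and on mock uterus, and 1 on mock brain and on SHT ovary. Their summed intensity was 124522 on SHT brain, 100912 on SHT uterus, 51120 on mock ovary, 26881 on mock uterus, 2304 on mock brain and 1906 on SHT ovary. Epcam, an adhesion protein of epithelia, read 17496 on SHT brain, 17082 on SHT uterus, 5509 on mock uterus and 4938 on mock ovary. Elf3, an epithelial transcription factor, read 11495, 5968, 679 and 1144 on the same arrays, and Krt19 17260, 13040, 5757 and 3922. Krt8 differed from these, with 16008 on SHT brain, 2523 on mock uterus and 979 on SHT uterus. It was inside background on mock brain, SHT ovary and mock ovary. On mock ovary it lay at or below the value to which low readings were raised (5.66). The 15 squamous markers were all above background on mock ovary and SHT uterus, with sums of 474644 and 334548, and 4 or 5 of them on the other arrays, with sums of 4369 to 8312. Oviduct and ciliated cell markers were above background for 9 of 10 on mock uterus (sum 42806) and 8 of 10 on SHT brain (33262), and for at most 2 on the rest (1442 to 3025). Ovgp1, the oviduct glycoprotein, read 31822 on mock uterus and 25536 on SHT brain. Pax8, a transcription factor of oviduct and uterine epithelium, read 1316 on mock uterus, 2939 on SHT brain, 2067 on SHT uterus and 710 on mock ovary. The part of these cell types in the levels of the members was not tested.

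Neutrophil markers differed between the arrays. Of 11 measured, 7 were above background on SHT uterus, against 1 to 4 on the others, and their sums were 72774 there, 13274 on mock ovary and 2427 to 4300 on the rest. S100a9, a calcium-binding protein of neutrophils, read 37218 on SHT uterus, 1007 on mock ovary and 992 on mock uterus. It read 789 on SHT ovary and 367 on SHT brain, and was inside background on mock brain (215). Retnlg, a secreted protein of neutrophils, read 26031 on SHT uterus, 10316 on mock ovary, 898 on SHT brain and 339 on mock uterus and was inside background on mock brain (65.3) and SHT ovary (160.0). S100a8, the partner of S100a9, read 1924 on mock brain, 2284 on SHT ovary and 522 on SHT uterus and was inside background on the rest. Csf3r and Cxcr2, receptors of neutrophils, read 3486 and 861 on SHT uterus and were inside background on SHT brain (52.8 and 6.32). Among genes of neutrophil granules, Ngp, Camp, Elane and Mmp8 were inside background on all 6 arrays. Mpo read 716 on mock ovary and 681 on SHT uterus and was inside background elsewhere. Mmp9 read 3541 on SHT uterus, 644 on mock ovary, 471 on mock uterus and 358 on SHT brain, and was inside background on the rest. The part of neutrophils in the Ltf and Lcn2 readings was not tested. Plasma cell markers were above background for 4 of 5 on SHT brain, 3 on mock ovary, mock uterus and SHT uterus, and 0 on mock brain and SHT ovary, with sums of 570 to 8711.

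**Figure D4:**
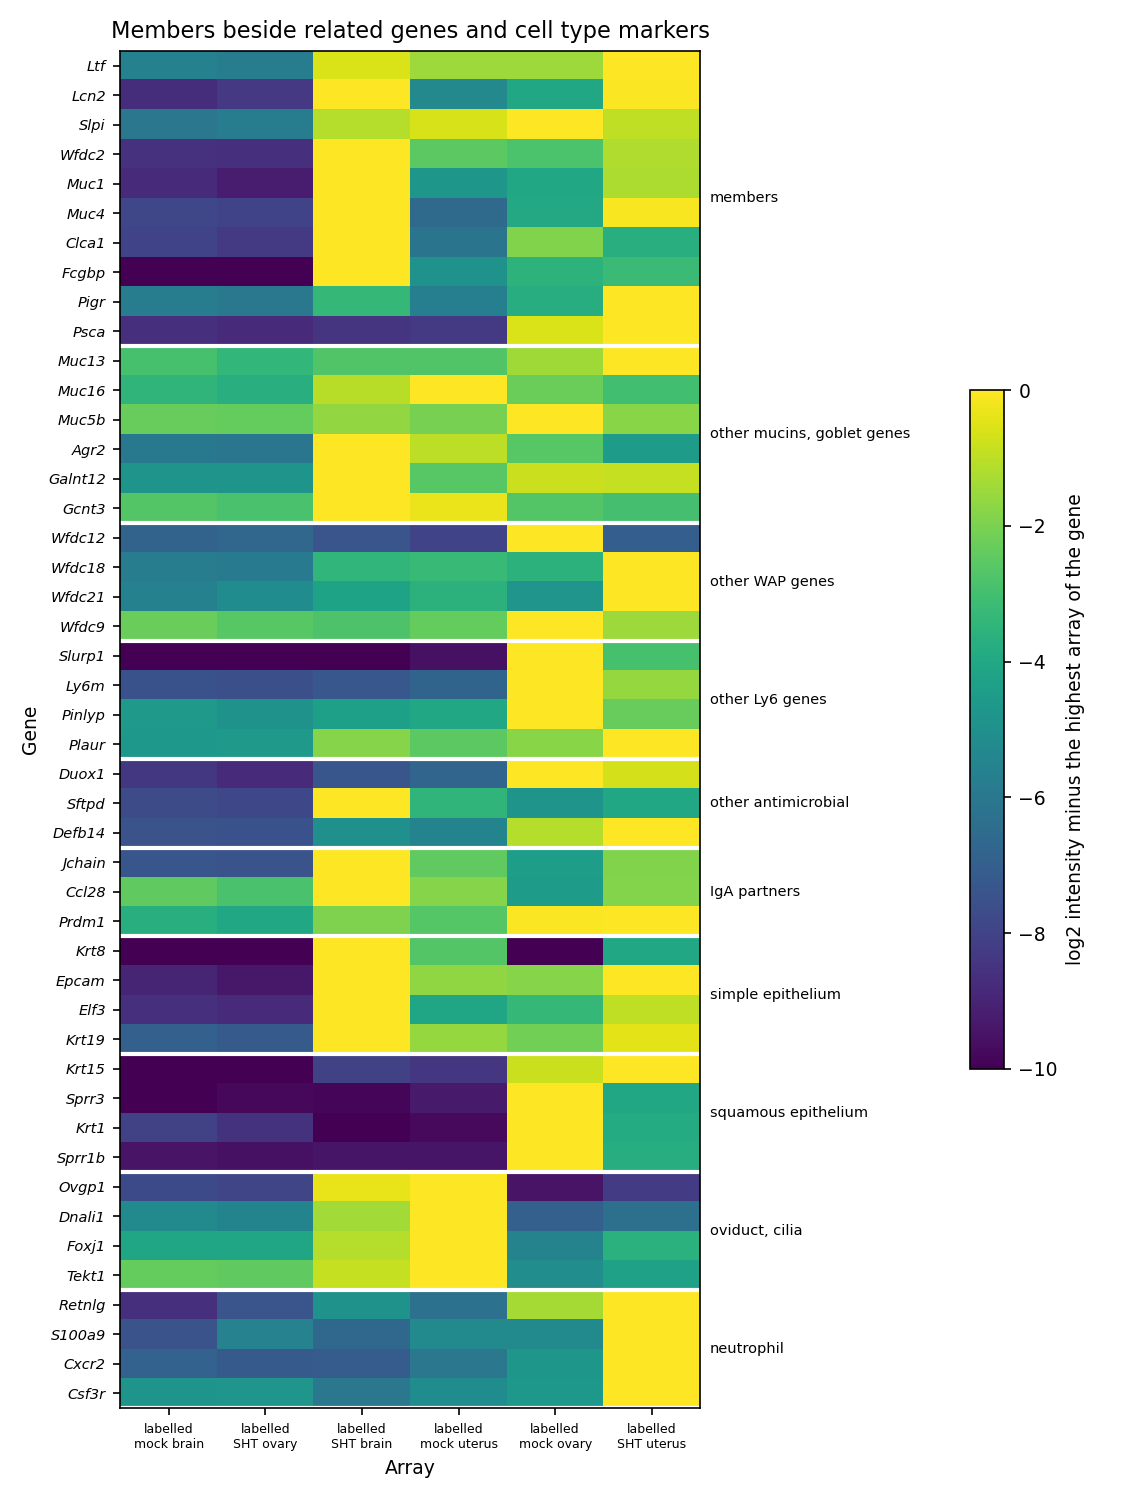
Log2 intensity of the members and of related genes and cell type markers (rows) on the 6 arrays (columns, similar arrays side by side), each minus the highest array of that gene, so that yellow marks the highest array and dark purple an array 10 or more log2 units lower. Psca shares its bright columns, mock ovary and SHT uterus, with Krt15 and Duox1, and Clca1 and Fcgbp share their brightest column, SHT brain, with Sftpd and Krt8.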

How the data were processed

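RNA from 6 samples was hybridised to 1-colour arrays (Cy5), per the labels. The deposited values are linear intensity, with 26423 probes per array. The submitters' processing notes name limma, without a version or a role, and no source used here states the background correction, scaling or probe filter. Median intensity lay between 179 and 224, and 20 to 30 probes per array were at or below 0. Values were raised to the 5th percentile of positive values of the array (5.66 to 6.66) and turned into log2 values, and arrays were not scaled to each other. A single symbol was given for 20377 probes, several for 0 and none for 6046. A RefSeq gene table (GRCm38.p6) held 18213 of these symbols as current and 2126 as synonyms, and 38 stayed as they were. Probe positions are left out, since no source used here names their build. A gene with several probes (2278) was its brightest probe. No test was made and no p-value is given, since each group is 1 array, and the average over the 3 pairs was not tested, since the members and lists were chosen with earlier results of these data known. The fold calculation was tested on simulated data, which gives no error rate for these arrays. From each list, up to 4 genes above background with the largest range over the arrays were named, besides Snap25, Hsd3b1 and Krt5. Muc2, Muc5ac, Muc6, Spdef, Creb3l1, Acta2, Wnt7a, Pax8, S100a8 and the neutrophil granule genes were named after their values were seen. Python 3.11.15, pandas 2.3.3 and numpy 2.4.6 were used. Alternatives were 2 scalings, 2 treatments of low values, 2 ways to combine probes, no level floor and a 3-fold threshold.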

Additional observations from a re-analysis of the deposited data

Results flagged for a closer look

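For 4 members the SHT minus mock difference was called, at 2-fold and past the level floor, in opposite directions in 2 labelled tissues. Each group was 1 array, and the difference was not tested. Fcgbp and Wfdc2 were also higher in the pair labelled brain and lower in ovary, past 2-fold, but did not pass the floor in ovary. Of all genes past the floor, 46.5%, 46.4% and 21.4% were called in either direction in the pairs labelled brain, ovary and uterus. The share of genes called in opposite directions was not counted. Between the pair labelled brain (higher on SHT) and the pair labelled ovary (lower on SHT), the log2 differences of Ltf, measured on all 4 arrays, lay 9.55 apart. With the edge of the background in place of readings inside it, they lay at least 8.17 apart for Lcn2 (13.26 as read) and at least 12.64 for Clca1 (14.69 as read). Psca was higher on SHT in the pair labelled uterus and lower in the pair labelled ovary, at least 12.59 apart (16.69 as read). The values as read rest on readings inside background and are not measured gaps, and Clca1 was at the top of the scale on SHT brain. Tissue and treatment cannot be told apart here, since marker genes went against several labels.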

How the results depend on the processing

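Over 10 members, 6 comparisons and 8 alternatives, 448 of 480 log2 differences kept their call or stayed not called, 24 came to be called and 8 lost the call. A call needs the fold threshold and, where one was set, the level floor. A difference that was not called could therefore cross 2-fold and stay not called. With low values raised to the olfactory receptor 95th percentile, Muc1 in the pair labelled ovary went from -5.33 to 0 in this way. No called difference changed sign, and 8 that were not called did. The alternatives for the 3 most similar pairs were chosen after seeing the data. Median centring, quantile normalization and both ways to combine probes changed no call of a member, and the last could not, since each member has 1 probe. With no level floor, 9 members were higher in the pair labelled brain (5 with it), beside 21.6% of genes, and 10 lower in the pair labelled ovary (4 with it), beside 21%. Among these, Pigr in brain and Muc1, Muc4 and Pigr in ovary were inside background on both arrays. With low values raised to the olfactory receptor 95th percentile, 7 were lower in the pair labelled ovary, beside 25.1% of genes, 7 were higher in brain, beside 43%, and between mock ovary and SHT uterus 1 was lower on SHT uterus (2 otherwise), as at 3-fold. There Slpi lost its call, at -0.97 on the log2 scale under the raised floor, and Ltf lost its call between SHT brain and mock uterus (0.99). At 3-fold 6 calls were lost, those 2 among them. Ltf and Wfdc2 lost theirs in the pair labelled uterus, which left 6 higher, beside 7.62% of genes. Both also lost theirs between mock ovary and SHT uterus, which left 4 higher, beside 1.77%. Between SHT brain and mock uterus 5 were left higher, beside 2.73%. Between mock brain and SHT ovary, 0.0378% of genes were higher and 0.0756% lower on SHT ovary, against 0.0472% and 0.0378% after median centring. No paired analysis was possible because each group holds 1 array, and for the same reason no replicate could be left out. Readings inside background set no order.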

Other observations

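Among the other lipocalins and transferrins, relatives of Lcn2 and Ltf, Trf and Ptgds did not share their profiles. Of 26 listed genes 20 had a named probe, and 12 were above background on at least 1 array. Trf, the transferrin of serum, read 12280 on mock brain, 9115 on SHT brain, 4363 on mock ovary, 13483 on SHT ovary, 15924 on mock uterus and 8408 on SHT uterus, so it was lowest where Psca was bright. Ptgds, a lipocalin that makes prostaglandin D2 and is abundant in brain, read 22834 on mock brain and 23270 on SHT ovary, 1201 on mock uterus, 389 on SHT uterus, and was inside background on SHT brain and mock ovary. Orm1, an acute-phase lipocalin, read 780 on mock uterus, 396 on SHT brain and 386 on SHT uterus and was inside background on the rest. On mock ovary it lay just under the edge (288 against 312). Lcn2 too was above background on the arrays where Orm1 was, but in another order. In the pairs labelled brain, ovary and uterus, 0 of 10, 3 of 9 and 0 of 10 past the floor were at least 2-fold higher on SHT and 2, 0 and 1 lower. Of all genes past it, 24.7%, 23% and 13.1% were higher and 21.7%, 23.4% and 8.26% lower.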
